A study of Danio rerio with 24 samples.

Results

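Long DNA methylation valleys are stretches of several kilobases in which nearly every CpG is unmethylated. Here they were found in late neural crest cells (NCCs) of zebrafish. The genome was divided into tiles of 500 bp, a tile was used when at least 3 of its CpGs had at least 5 reads in all 4 libraries, and a valley was a run of at least 7 adjacent tiles that each had a mean methylation level below 15% in late NCCs. Of 26012 such runs of any length, 338 reached 7 tiles. The valleys were thus selected on the late NCC levels, and those levels are given as a description without a test, and tests were made only between the other libraries.

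The study followed neural crest differentiation into pigment cells by whole-genome bisulfite sequencing (WGBS), in which unmethylated cytosine is converted by bisulfite and a read that covers a CpG shows its state. Early NCCs (15 somite stage) and late NCCs (24 hpf, hours post fertilization) were sorted as GFP-positive cells from Tg(crestinA:EGFP) embryos, in which an element of the neural crest gene crestin drives the reporter. Melanophores, the black pigment cells, and iridophores, the reflective pigment cells, were isolated from mlphaj120 larvae at 4 to 5 dpf (days post fertilization). All the pigment cell DNA therefore came from mlphaj120 fish and all the NCC DNA from the transgenic line, and cell type, stage and strain cannot be told apart between NCCs and pigment cells, whereas melanophores and iridophores share genotype and stage. The authors combined 2 biological replicates into 1 library per cell type, so a test compares the reads of 2 libraries and not the spread between animals. A covered CpG had on average 24.0 reads in the shallowest library, early NCCs, and 35.2 in the deepest, melanophores, and the mean level of covered CpGs ran from 80.0% in iridophores to 84.3% in early NCCs.

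In vertebrates most CpGs of the genome are methylated, and short unmethylated stretches mark promoters rich in CpGs. Long valleys are a distinct class that often lies over genes of developmental transcription factors and signalling molecules. In many cell types such genes are held silent by Polycomb proteins, and valleys in mammals can gain methylation when a lineage differentiates or becomes cancerous. Valleys are named here by their position in the zebrafish build danRer10.

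The valleys were 7 to 23 tiles long with a median of 8.5 tiles, which is a width of 3500 to 11500 bp with a median of 4250 bp. Together they covered 1634000 bp and held 48076 CpGs. They were rich in CpGs, with a median over valleys of 14.2 CpGs per tile against a median of 8 over all 1742304 tiles. This was not particular to long runs, since runs of 6 tiles had a median of 16.3 CpGs per tile. Within the valleys the median was 15.3 at 7 tiles and 13.7 at 15 or more tiles. All 25 chromosomes held at least 3 valleys. Chromosome 7 had the largest number, 36, and chromosome 22 the smallest, 3.

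Some valleys lay close together. A tile without data ends a run, so neighbouring valleys can be parts of 1 low stretch. The 3 valleys of chr24:16981501-16999500, for example, were separated only by tiles without data. When valleys at most 5000 bp apart were joined, the 338 valleys formed 294 loci, of which 33 held 2 or more valleys. These 33 loci held 77 of the valleys. The locus with most valleys was chr3:23571501-23625500, with 8.

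At the level limit, values on the 2 sides were close only at their extremes. The highest late NCC tile inside a valley had a level of 14.9%, and the lowest tile with data that adjoined a valley had 15.7%. Typical values were far apart. The highest late NCC tile of a valley had a median of 3.77% over valleys, and the adjoining tiles with data had a median of 65.2%. Just outside the length limit were 216 runs of 6 tiles, and just inside it were 107 runs of 7 tiles. The 6-tile runs had median levels of 1.21% in early NCCs, 0.987% in late NCCs, and 1.37% and 1.62% in melanophores and iridophores. The 7-tile valleys had 1.13%, 0.980%, 1.27% and 1.81% in the same order, so the iridophore median was the highest of the 4 on both sides of the limit.

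Most valleys were nearly free of methylation in every library. The level of a valley, the mean over its CpGs, was below 3% in all 4 libraries in 228 valleys and below 5% in 278. The median level was lowest in late NCCs at 1.04%, and early NCCs were close to it at 1.12%. Melanophores had a median of 1.39% and iridophores one of 1.97%. The highest of the 4 levels was that of iridophores in 228 valleys, early NCCs in 51, melanophores in 44 and late NCCs in 15. The range of a valley over the 4 libraries was under 1 percentage point in 156 valleys and reached 5 points in 48.

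The libraries differed most in their upper tail. A level of at least 5% was found in 5 valleys in early NCCs, 3 in late NCCs, and 26 and 58 in melanophores and iridophores. At 15%, the level that a tile had to stay below in late NCCs, there was 1 valley in early NCCs, 1 in melanophores and 14 in iridophores. The highest level was 22.9% in early NCCs, 8.19% in late NCCs, and 24.7% and 32.1% in melanophores and iridophores. The median depth of a valley was 33.1 reads per CpG in early NCCs, 44.8 in late NCCs, and 50.5 and 35.4 in melanophores and iridophores. The part of depth in these levels was not tested.

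**Figure D1:**
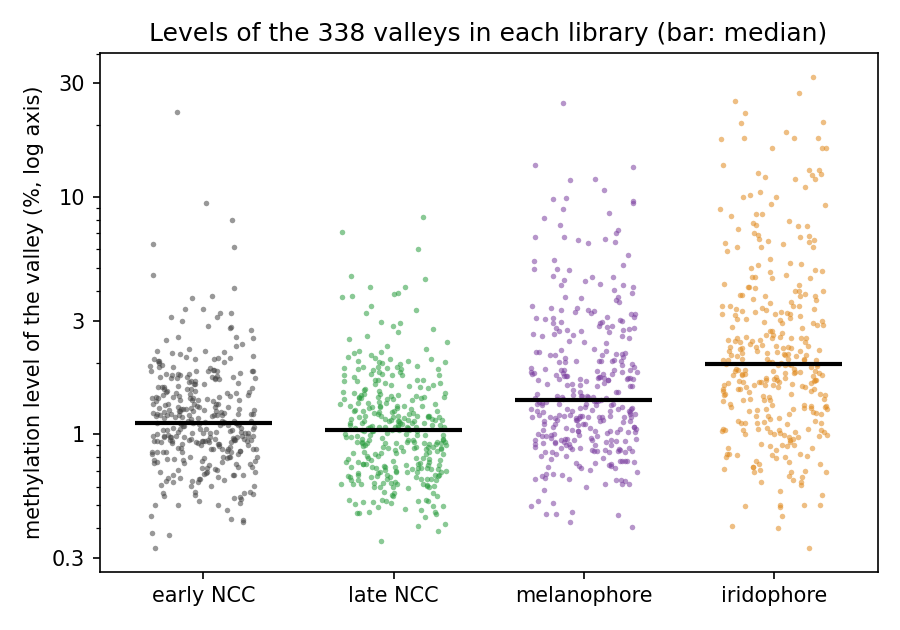
Each point is 1 of the 338 valleys, plotted by its methylation level in percent on a log axis for each of the 4 libraries, and the bar is the median over valleys. The medians are 1.12%, 1.04%, 1.39% and 1.97% from left to right, and 58 iridophore points lie at or above 5%, against 26 in melanophores and 5 in early NCCs.

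The first comparison was between the pigment cells, which share strain and stage. The median difference over valleys was 0.430 points, against 0.0188 points over all 26012 runs, and iridophores were above melanophores in 267 of 338 valleys. A valley was called when Fisher's exact test, two-sided, on its summed reads had a Benjamini-Hochberg adjusted p below 0.05 over all runs and its level differed by at least 5 points. Iridophores were called higher in 25 valleys (7.40%), against 1.12% of all runs. They were called lower in 0 valleys, against 0.246% of all runs. A lower call was possible in few valleys, since 26 had the melanophore level of at least 5% that it needs. Without the minimum difference, an adjusted p below 0.05 by the same exact test was found in 112 valleys (33.1%) with iridophores higher and 1 with iridophores lower. Over all runs the shares were 2.75% higher and 0.615% lower.

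The 25 valleys lay in 18 loci on 14 chromosomes. Their levels ran from 1.72% to 13.4% in melanophores, with a median of 6.40%, and from 7.30% to 32.1% in iridophores, with a median of 16.0%. In early NCCs their median was 1.11% and in late NCCs also 1.11%. They had a median of 12 CpGs per tile and 10 tiles, against 14.2 CpGs per tile and 8.5 tiles in all valleys.

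**Figure D2:**
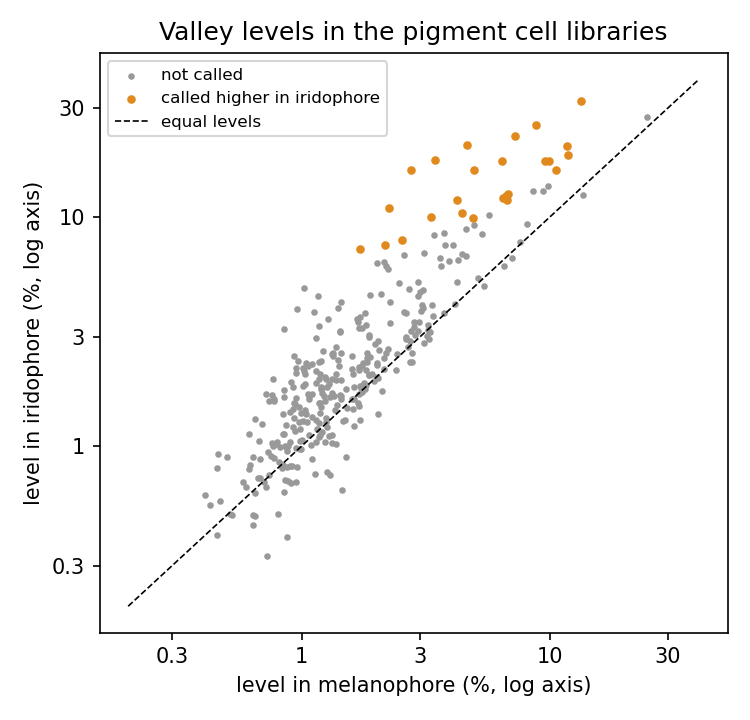
Each point is 1 of the 338 valleys, plotted by its level in melanophores (horizontal) and iridophores (vertical), both in percent on log axes, with a dashed line at equal levels. The 25 valleys called higher in iridophores lie above the line, and no called valley lies below it.

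The share called in this comparison differed by run length, without a step at the limit of 7 tiles. Iridophores were called higher than melanophores in 1.30% of 9444 runs of 1 tile, 0.821% of 14127 runs of 2 to 3 tiles, 1.01% of 1887 runs of 4 to 5 tiles and 3.70% of the 216 runs of 6 tiles. Among the valleys the share was 3.74% at 7 tiles, 6.12% at 8 to 9, 11.3% at 10 to 14 and 11.1% at 15 or more. The runs of 6 tiles and the valleys of 7 tiles thus had nearly the same share. Longer runs also had more reads, with a median in iridophores of 253 in runs of 1 tile and 4839 in valleys, and the part of read number in these shares was not tested.

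The 6 called valleys with the largest differences between iridophores and melanophores had a melanophore level between those of NCCs and iridophores. At chr24:16996001-16999500 (7 tiles, 79 CpGs) the level was 1.19% in early NCCs, 0.685% in late NCCs, and 13.4% and 32.1% in melanophores and iridophores. The libraries held 1475, 2609, 2969 and 2262 reads there, and the Wilson 95% interval of the share of methylated reads was 11.3 to 13.7% in melanophores and 29.3 to 33.2% in iridophores. Such intervals cover counting error only, and a read over several CpGs is counted at each, so they can be too narrow. The difference of 18.7 points had an adjusted p of 1.36e-58 by Fisher's exact test.

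At chr18:23877501-23886000, a valley of 17 tiles, the levels were 1.34%, 1.54%, 8.84% and 25.3% in early NCCs, late NCCs, melanophores and iridophores. The pigment cells differed by 16.5 points there (adjusted p = 8.22e-64, Fisher's exact test). At chr5:49097501-49101500 the levels were 1.91%, 2.01%, 7.24% and 22.5% in the same order. These 3 valleys had melanophore levels above 7%.

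The other 3 had melanophore levels below 5%. At chr22:11119501-11123000 it was 4.65%, against 1.11% in early NCCs, 0.973% in late NCCs and 20.6% in iridophores. At chr24:8581501-8587000 the levels were 1.33%, 1.12%, 3.45% and 17.7%, and at chr2:47575001-47581000 they were 0.716%, 0.764%, 2.75% and 16.0%, from early NCCs to iridophores. No valley was called with melanophores above iridophores.

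Against early NCCs, melanophores and iridophores were each compared, and both comparisons share the early NCC library. Melanophores were higher in 239 of 338 valleys, with a median difference of 0.256 points against 0.0798 over all runs. They were called higher in 15 valleys (4.44%), against 5.74% of all runs, and lower in 1 valley, against 1.18% of all runs. The share called higher was thus close to that of all runs, and its order turned to 7.40% of valleys against 6.03% of runs when levels were taken as means over tiles. The order also turned when no minimum difference was set, with 28.4% of valleys against 10.2% of runs. It turned as well with CpGs 300 bp apart (5.62% against 0.807%) and at least 10 tiles (7.52% against 5.74%). In the other settings tried it did not turn. With 10 reads per CpG, for example, it was 1.73% of valleys against 5.4% of runs, and with a minimum of 10 points 0.888% against 3.26%. In the main setting the share was 2.78% in runs of 6 tiles and 0.935% in valleys of 7 tiles. Runs of 1 tile, with a median of 179 early NCC reads, had 9.55% called higher. Valleys had a median of 4384.5 early NCC reads, against 583 over all runs. With CpGs 300 bp apart, the calls over all runs fell from 1494 to 210, while those in valleys went from 15 to 19. The part of read number in the settings where the order turned was not tested.

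Iridophores were above early NCCs in 269 valleys, with a median difference of 0.818 points against 0.0868 over all runs. They were called higher in 46 valleys (13.6%), against 6.85% of all runs, and lower in 1 valley, against 1.08%. By run length, 10.6% of runs of 1 tile, 4.67% of runs of 2 to 3 tiles, 3.18% of runs of 4 to 5 tiles and 6.48% of runs of 6 tiles were called higher. The share was 6.54% in valleys of 7 tiles, 10.2% at 8 to 9, 19.8% at 10 to 14 and 29.6% at 15 or more, where it rests on 8 of 27 valleys.

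The 46 valleys lay in 33 loci on 18 chromosomes. Loci more than 5000 bp apart can still be neighbours, so 33 is not a count of separate sites. The level of the 46 valleys ran from 0.376% to 9.42% in early NCCs, with a median of 1.29%. In iridophores it ran from 6.30% to 32.1%, with a median of 11.4%. In melanophores the same valleys had a median of 4.77%. The 15 valleys called higher in melanophores had medians of 1.34% in early NCCs, 9.42% in melanophores and 17.6% in iridophores.

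**Figure D3:**
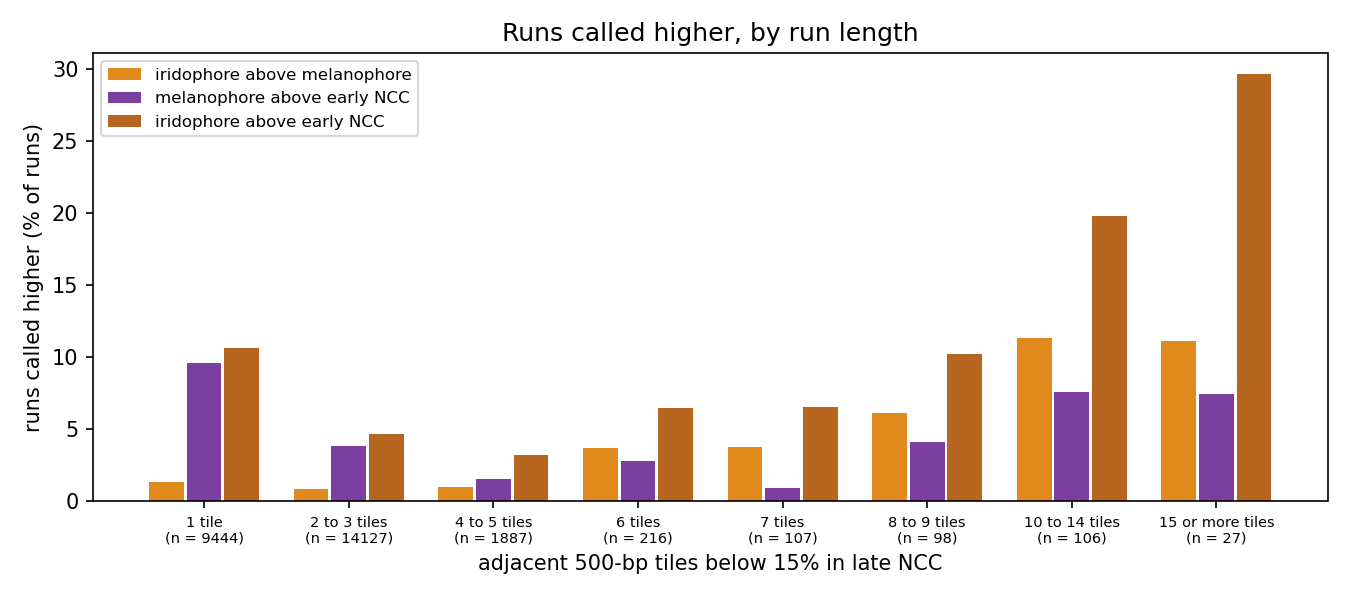
Bars give the share of runs, in percent, called higher in the library named first, by the number of adjacent tiles below 15% in late NCCs, with the number of runs under each class. For iridophores above melanophores the bars of 6 and 7 tiles are 3.70% and 3.74% and the longer classes reach 11.3%, while for the comparisons with early NCCs the runs of 1 tile have 9.55% and 10.6%.

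The calls against early NCCs were counted by chromosome. Of the 46 valleys called higher in iridophores, 9 were on chromosome 3, 5 on chromosome 24 and 4 on chromosome 19. Chromosomes 3, 24 and 19 held 18, 14 and 18 valleys. None of the 20 valleys on chromosome 16 and none of the 17 on chromosome 17 was called.

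All 9 calls on chromosome 3 lay in neighbouring loci. The loci chr3:23556501-23564000 and chr3:23636001-23641500 held 1 call each. The locus chr3:23571501-23625500, which lies between them, accounted for 7 of the 9. Over its 8 valleys the levels were 1.44% in early NCCs, 1.51% in late NCCs, and 6.30% and 11.6% in melanophores and iridophores. Every one of the 8 had the order NCCs, melanophores, iridophores. The valley that was not called in iridophores against early NCCs had 0.842% and 5.24%, under the minimum difference. The highest of the 8, at chr3:23590001-23595000, had 3.12%, 2.98%, 9.91% and 17.6% from early NCCs to iridophores.

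Of the 33 loci with 2 or more valleys, 4 had every valley called higher in iridophores than in early NCCs. At chr19:20186001-20216000 all 4 valleys were called, and the levels of the locus were 1.49%, 1.38%, 4.13% and 6.90% in early NCCs, late NCCs, melanophores and iridophores. At chr12:34611501-34622500, which holds 2 valleys, they were 0.752%, 0.716%, 4.58% and 13.9%, and at chr5:49089001-49101500, also with 2, they were 1.42%, 1.43%, 3.63% and 11.1%. Neighbouring valleys share their surroundings and are not independent observations.

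The fourth was chr24:16981501-16999500, with 3 valleys, which were called higher in each of the 3 comparisons. Its levels were 1.38% in early NCCs, 1.19% in late NCCs, and 9.02% and 20.5% in melanophores and iridophores. Methylation was not spread evenly over it. Of its 34 tiles, 21 had at least 15% in iridophores and 10 in melanophores, and the highest tile, at chr24:16987501-16988000, had 4.52%, 1.68%, 49.7% and 72.8%. Tiles with many CpGs between the high ones were low in all libraries, as at chr24:16993501-16994000 with 31 CpGs, where early NCCs had 0.681%, late NCCs 0.521%, melanophores 0.644% and iridophores 0.727%.

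The valley with the largest rise of the mean of both pigment cells over early NCCs was chr14:2025001-2031500 (13 tiles, 166 CpGs). It had 3.23% in early NCCs, 4.18% in late NCCs, and 24.7% and 27.3% in melanophores and iridophores. Against early NCCs the adjusted p was 1.16e-267 in melanophores and 3.09e-251 in iridophores, and between the pigment cells it was 1.0, all by Fisher's exact test. Unlike the chromosome 24 locus, the pigment cells therefore differed here by 2.60 points, without a call. The tile before the valley with data was at 98.2% in early NCCs and 96.5% in late NCCs but 50.0% in melanophores and 55.3% in iridophores. On the other side the order was the opposite, with both pigment cells above early NCCs in 5 of the 5 tiles shown.

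The next valleys in order of rise were those of chromosomes 24 and 18 given above, and chr13:5433001-5439500, with 1.34%, 1.30%, 11.8% and 20.5% from early NCCs to iridophores. They were followed by the chromosome 5 valley given above and by chr10:21725001-21729500, with 3.0%, 3.45%, 11.9% and 18.8%. Each of the 6 was called higher in both pigment cells than in early NCCs.

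Falls could be called in few valleys, since 5 had the early NCC level of at least 5% that a fall of 5 points needs. Both pigment cells were below early NCCs, by any amount, in 57 valleys. The 1 valley called lower in each pigment cell than in early NCCs was the same one, chr14:41802001-41806000 (8 tiles, 174 CpGs). Its level was 22.9% in early NCCs, 3.88% in late NCCs, and 8.12% and 9.29% in melanophores and iridophores, with 7240, 7592, 9007 and 6297 reads. The adjusted p against early NCCs was 2.03e-136 in melanophores and 1.19e-72 in iridophores by Fisher's exact test. The call was absent in both pigment cells with 3 reads per CpG or tiles below 10%, and in iridophores with CpGs 300 bp apart. In early NCCs, 5 of its tiles lay between 28.8% and 48.6%, and 1 pigment cell tile in each library exceeded 15%.

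The other 5 valleys with the largest falls moved by less than 5 points and were not called. Among them, chr5:44404501-44409000 had 6.14% in early NCCs, 4.63% in late NCCs, and 3.07% and 4.15% in melanophores and iridophores. At chr6:19792501-19796500 the levels were 2.35%, 1.69%, 0.651% and 0.495%, and at chr7:37814001-37817500 they were 1.85%, 0.529%, 0.716% and 0.662%.

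**Figure D4:**
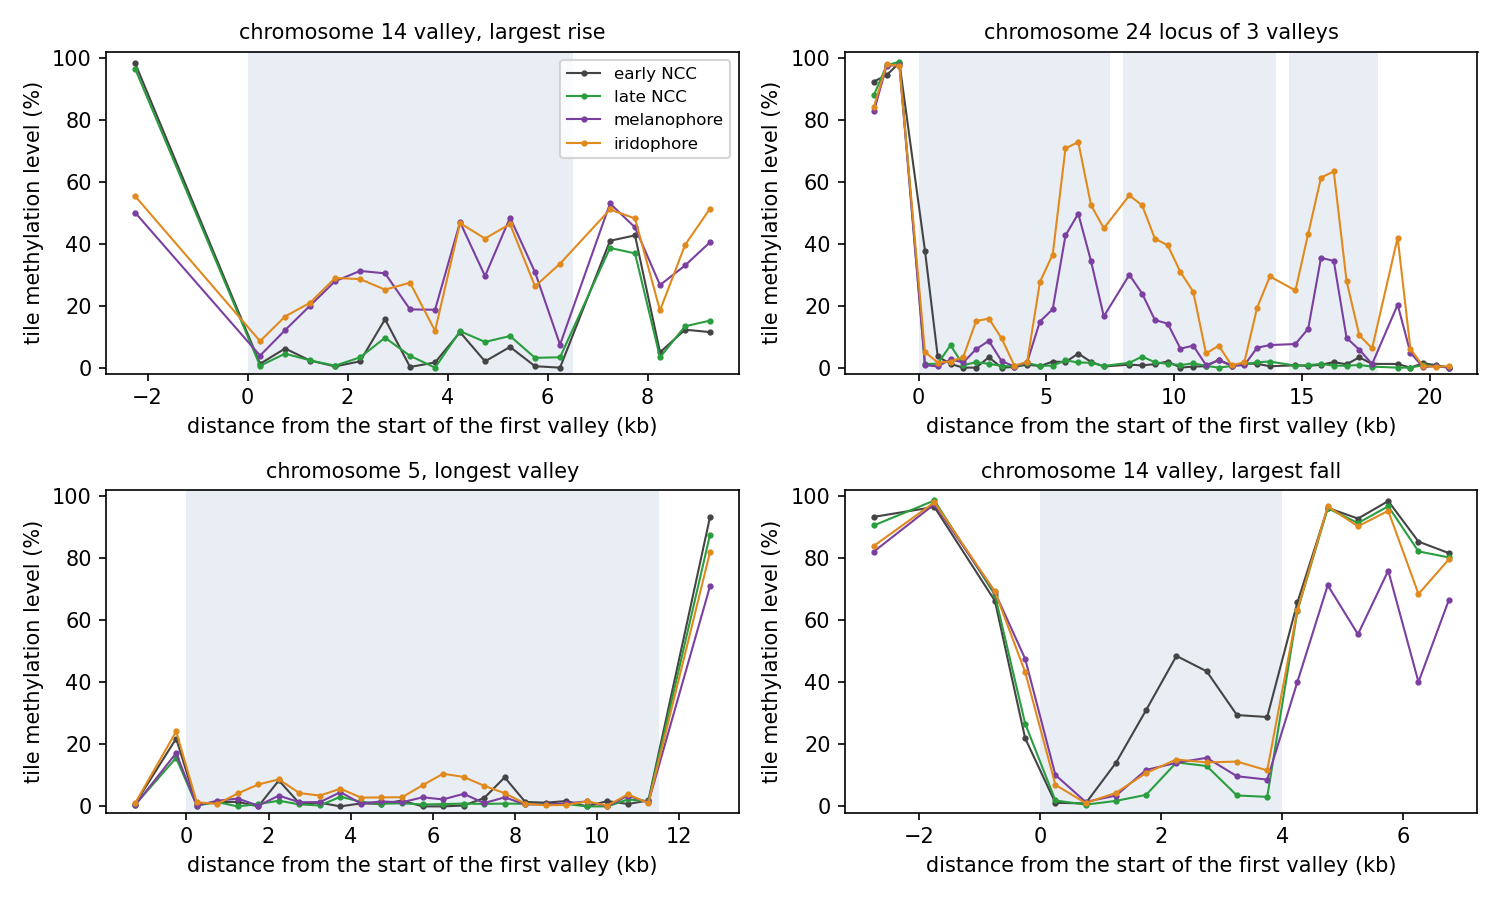
Lines give the level of each 500-bp tile with data in percent against the distance in kb from the start of the first valley, for the 4 libraries, and shading marks tiles of the valleys. In the chromosome 24 locus the iridophore line reaches 72.8% and the melanophore line 49.7%, in the longest valley no tile reaches 15% in any library, and in the valley with the largest fall the early NCC line is the highest in 6 of the 8 tiles.

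Most of the longest valleys were low in every library. The longest, chr5:71531001-71542500 (23 tiles, 375 CpGs), had 1.43% in early NCCs, 0.867% in late NCCs, and 1.43% and 3.19% in melanophores and iridophores, and its highest tile in iridophores was at 10.5%. At chr4:25070001-25081000 (22 tiles) the levels were 0.872%, 0.872%, 1.12% and 3.85%. At chr17:38314001-38325000, also of 22 tiles, they were 0.800%, 0.524%, 0.884% and 1.01%.

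Of the 8 longest valleys, 1 was called in a comparison, chr11:40652001-40661500 (19 tiles), with 0.941%, 0.615%, 2.24% and 11.0%. Iridophores there were 8.78 points above melanophores (adjusted p = 3.17e-80, Fisher's exact test). The remaining 4, chr13:10128001-10138500, chr19:41877501-41888000, chr2:29725501-29734500 and chr7:35433001-35442000, had iridophore levels of 2.22%, 2.37%, 0.877% and 1.81%. By class of width, the iridophore median was 1.81% in the 107 valleys of 7 tiles, 1.84% in the 98 of 8 to 9, 2.31% in the 106 of 10 to 14 and 2.88% in the 27 of 15 or more tiles. Early NCC medians had no such order, at 1.13%, 1.17%, 1.03% and 1.15%.

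Single tiles inside the valleys gave the same order of libraries. Of the 3268 tiles, 33 had at least 15% in early NCCs, 96 in melanophores and 247 in iridophores, and at least 30% was found in 5, 15 and 63. Tiles of at least 50% were found in iridophores, 11 of them in 7 valleys, and in neither of the other tested libraries. At least 1 tile of 15% or more was present in 25 valleys in early NCCs, 56 in melanophores and 89 in iridophores.

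Tiles were tested over all 1742304 tiles of the genome and called at a difference of at least 10 points. Inside valleys, iridophores were called above melanophores in 150 tiles (4.59%), against 2.98% of all tiles, and below them in 0, against 2.97%. Melanophores were called above early NCCs in 90 (2.75%), against 0.852% of all tiles, and below in 12 (0.367%), against 10.6%. Iridophores were called above early NCCs in 288 (8.81%), against 0.808% of all tiles, and below in 11 (0.337%), against 10.9%. Genome-wide calls against early NCCs were thus mostly losses, whereas inside valleys they were mostly gains. A tile at a level below 10 points cannot be called lower by this rule, and a tile within 10 points of full methylation cannot be called higher. The median early NCC level was 0.794% inside valleys and 92.4% over all tiles. The room for gains and for losses thus differed between valley tiles and all tiles, and its part in these shares was not tested.

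Tiles of at least 15% were more frequent where CpGs were few. In iridophores, 12.3% of the 669 valley tiles with 3 to 6 CpGs had at least 15%, as did 11.6% of the 956 with 7 to 12 CpGs, 5.07% of the 867 with 13 to 20 and 1.29% of the 776 with 21 or more. In melanophores the shares were 6.73%, 3.35%, 1.61% and 0.644%, and in early NCCs 2.09%, 1.05%, 0.577% and 0.515%. Median depth rose along the same classes, in iridophores from 20.5 to 42.0 reads per CpG and in early NCCs from 12.3 to 41.7, and its part in these shares was not tested.

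Valley ends were somewhat more methylated than their interiors in each library. The outermost tiles had a mean level of 2.35% in early NCCs, 2.09% in late NCCs, and 3.64% and 5.60% in melanophores and iridophores, against 1.36%, 1.26%, 2.51% and 4.28% in the inner tiles. The pigment cells were above early NCCs in both places. Outside the valleys the mean level of both pigment cells was below that of early NCCs at each of 20 distances. The medians had the same order at 19 distances in melanophores and 18 in iridophores, and the exceptions were close to the valley. At 0.75 kb the median was 6.84% in early NCCs, 9.62% in melanophores and 18.2% in iridophores. Many valleys ended at a tile without data, so a low tile this close can belong to the same low stretch. Over all tiles of the genome the median was 92.4% in early NCCs, 88.5% in melanophores and 87.8% in iridophores. Pigment cells below early NCCs were thus not particular to the surroundings of valleys.

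The valley ends were set by missing data more often than by methylation. Of the 676 ends, 161 adjoined a tile with data, and 515 a tile without. A shoulder tile was taken only where the tile directly outward of an end had data, so by the rule each had at least 15% in late NCCs. The 158 different shoulder tiles had median levels of 69.7% in early NCCs, 65.2% in late NCCs, and 61.8% and 61.8% in melanophores and iridophores. Iridophores were called above early NCCs in 12 shoulder tiles (7.59%) and below in 27 (17.1%), against 0.808% and 10.9% of all tiles. Melanophores were called above in 8 (5.06%) and below in 24 (15.2%), against 0.852% and 10.6%. Between the pigment cells, iridophores were called above and below melanophores in 3 each (1.90%), against 2.98% and 2.97%.

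**Figure D5:**
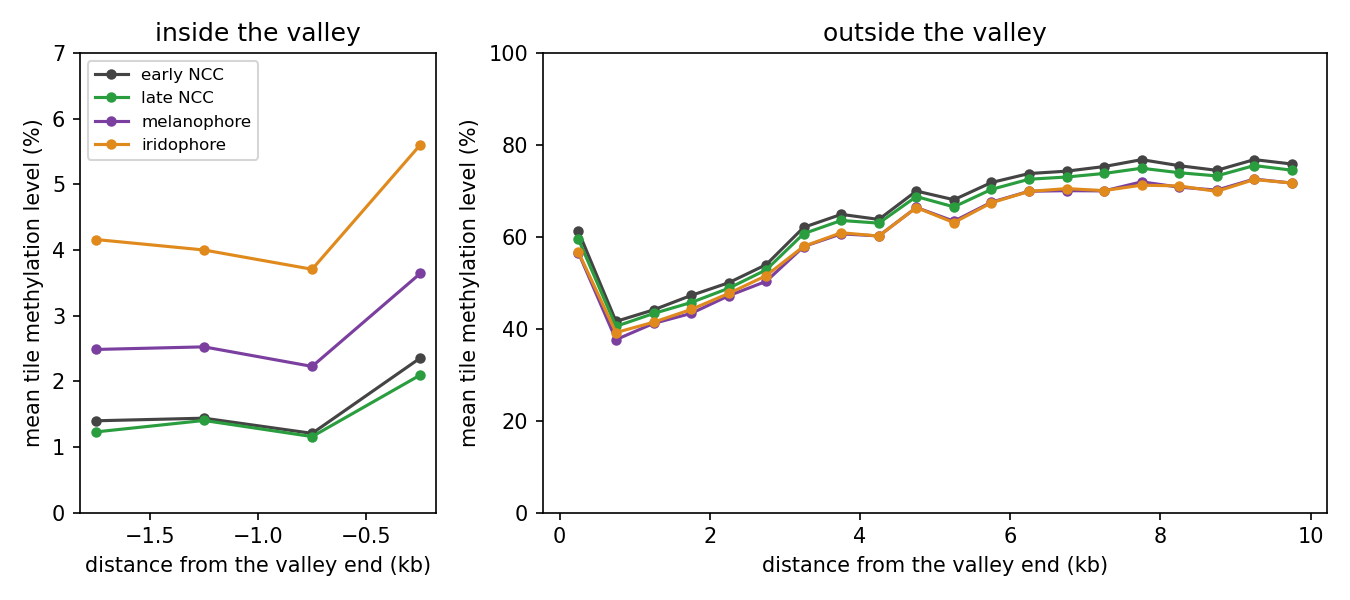
Points give the mean tile level in percent against the distance in kb from the valley end, averaged over up to 676 ends, for the 4 libraries, with a vertical axis to 7% inside and to 100% outside. Inside, iridophores lie above melanophores and both lie above NCCs, and outside early NCCs are the highest; the first point outside holds the 161 ends that adjoin a tile with data.

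Widths were compared by walking outward from the middle tile of each valley to the last tile below 15%, stepping over at most 2 tiles without data and going at most 20 kb. The median edge-to-edge width was 6500 bp in early NCCs, 7000 bp in late NCCs, 6500 bp in melanophores and 5000 bp in iridophores. From melanophores to iridophores 90 valleys were narrower, 236 had the same width and 12 were wider. From early NCCs to melanophores 70 were narrower, 243 the same and 25 wider, and from early NCCs to iridophores 110 were narrower, 216 the same and 12 wider. These counts include valleys whose middle tile was not below 15% and whose width was set to 0, of which there were 4 in early NCCs, 8 in melanophores and 25 in iridophores. The walk ended at the first tile of 15% or more, so a tile inside a valley could make it narrower without a shift of its outer edge. Neighbouring valleys could share 1 walked stretch and were then counted more than once. The 2 valleys of chr1:8602501-8612000, for example, both had 12000 bp in all 4 libraries. When the edge was placed at 50% in place of 15%, the median was 7500 bp in each of the 4 libraries. At 30% it was 7000 bp in early NCCs, 7250 bp in late NCCs, 7000 bp in melanophores and 6500 bp in iridophores.

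Applied to each library in its own right, the same rule found 337 long runs in early NCCs, 320 in melanophores and 291 in iridophores, beside the 338 in late NCCs. Of the late NCC valleys, 10 overlapped no long run in early NCCs, 26 none in melanophores and 54 none in iridophores. Every tile stayed below 15% in 313 valleys in early NCCs, 282 in melanophores and 249 in iridophores. The longest stretch of tiles below 15% was under 4 tiles in 2 valleys in early NCCs, 7 in melanophores and 19 in iridophores. A valley could thus lack a long run while much of it stayed low. Few long runs overlapped no late NCC valley, with 10 in early NCCs, 8 in melanophores and 6 in iridophores. In 10, 7 and 5 of these, just 1 tile had a late NCC level of 15% or more. Between the pigment cells, 285 of the 320 melanophore runs (89.1%) overlapped an iridophore run, and 286 of the 291 iridophore runs (98.3%) overlapped a melanophore run.

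Against late NCCs, whose low levels defined the valleys, the other libraries are described without a test. The median difference from late NCCs was 0.0979 points in early NCCs, 0.382 in melanophores and 0.846 in iridophores. At least 5 points above late NCCs were 1 valley in early NCCs, 15 in melanophores and 47 in iridophores, and no valley was 5 points below it in any of them. A level 5 points below was possible in few valleys, since 3 had a late NCC level of at least 5%.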

How the data were processed

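WGBS was available for early NCCs, late NCCs, melanophores and iridophores, with 2 replicates combined by the authors into 1 library each. Per the study's methods the authors used Cutadapt for trimming, Bismark for alignment to danRer10 and Picard to remove duplicates; versions are not given in the sources used here. The deposited level of a CpG is its fraction of methylated reads, and the deposited read count is its coverage. Methylated reads were taken as level times coverage, which lay within 0.00432 of a whole number. Files hold 21723492 to 22581880 CpGs with at least 1 read, and 16909511 had at least 5 reads in all 4.

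Tiles were counted from position 0. Reads of all CpGs of a run were summed and compared by Fisher's exact test (two-sided), with Benjamini-Hochberg adjustment over all 26012 runs, or over all 1742304 tiles for tiles. A call required an adjusted p below 0.05 and 5 points for runs or 10 points for tiles. The test uses read sums while the difference is between means over CpGs, and its p-values can be too small because a read counts at each CpG it spans. The code was tested on simulated data. Analyses used Python 3.11.15, numpy 2.4.6, scipy 1.17.1, pandas 2.3.3, numba 0.67.0 and matplotlib 3.10.9.

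The valleys and lists were chosen with earlier results of these data known. After the files were seen, the valley level was set to the mean over CpGs (means over tiles were looked at first), as were the edge walk and the locus gap of 5000 bp. Named valleys were the 8 longest, the 6 with the largest rise and the 6 with the largest fall of the pigment cell mean against early NCCs, and the 6 with the largest called difference between pigment cells in each direction. Loci with 2 or more valleys that were called throughout or nearly so were named after their values were seen. Gene lists and cell type markers could not be placed on danRer10 with the annotation used here, so no valley carries a gene name and the cell labels were not checked. RNA-seq and ATAC-seq files of the series were not used.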

Additional observations from a re-analysis of the deposited data

How the results depend on the processing

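No paired analysis was possible because the replicates were combined within each library, and for the same reason no replicate could be left out. Of 201 values under other settings, 145 stayed within 1.5 times the main count, or within the 95% interval of the median over valleys, and 56 moved. More valleys were called higher than lower in iridophores in each setting tried. A lower call at 5 points needs a level of at least 5% in the other library. In the main setting 26 valleys had this in melanophores and 5 in early NCCs, so higher calls had far more room than lower ones. With no minimum difference, 112 valleys were higher and 1 lower than in melanophores, and 177 higher and 9 lower than in early NCCs.

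With 10 reads per CpG there were 173 valleys in late NCCs, and 172, 170 and 151 long runs in early NCCs, melanophores and iridophores. Calls then fell to 9 (iridophores above melanophores), 3 (melanophores above early NCCs) and 17 (iridophores above early NCCs). Tiles called higher fell to 66, 28 and 111 in the same order. These tile counts rest on the tiles of the 173 valleys. Their share of those tiles was not computed, so they do not show that calls per tile became fewer. The called valleys were 5.2%, 1.73% and 9.83% of valleys, against 1.17%, 5.4% and 6.63% of runs. Median levels were 1.002%, 0.863%, 1.22% and 1.71%, and median widths 6000 bp in early and in late NCCs. At least 5 tiles gave 1075, 1066, 1044 and 1010 runs in late NCCs, early NCCs, melanophores and iridophores, and at least 10 tiles 133, 134, 118 and 99. Bridging 1 tile without data gave 483 valleys in late NCCs, and 478, 480 and 454 long runs in early NCCs, melanophores and iridophores.

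A minimum of 10 points left 8, 3 and 21 valleys called higher, and no minimum gave 112, 96 and 177, with 1, 16 and 9 called lower. With 10 points the higher calls were 2.37%, 0.888% and 6.21% of valleys, against 0.411%, 3.26% and 4.03% of runs. With no minimum they were 33.1%, 28.4% and 52.4% of valleys, against 2.75%, 10.2% and 12.1% of runs. The lower calls with no minimum were 0.615%, 4.46% and 4.15% of runs. Valleys had more reads than shorter runs, and the part of read number in these shares was not tested. The 1 valley lower than early NCCs in both pigment cells was not found with 3 reads per CpG or tiles below 10% (0 and 0). With tiles below 10% it was no longer a valley by its late NCC levels. With CpGs 300 bp apart the counts were 2 in melanophores and 0 in iridophores. Of the settings chosen after seeing the data, 1 kept the longest valley of each of the 294 loci. It gave 9 valleys with melanophores above early NCCs, a share of the 294 below the 5.74% of all runs. Levels as means over tiles gave 25, a share of 7.40% of valleys against 6.03% of runs.

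Median levels were 1.22%, 1.20%, 1.78% and 2.57% as means over tiles, from early NCCs to iridophores, and 0.975%, 0.900%, 1.16% and 1.72% when weighted by reads. With tiles below 10% they were 1.03% and 0.929% in early and late NCCs. Edges at 30% and 50% gave widths of 7000 and 7500 bp in melanophores and 6500 and 7500 bp in iridophores. In early NCCs they gave 7000 and 7500 bp, and in late NCCs 7250 and 7500 bp. The cause of these changes was not tested.

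Tiles with few CpGs also had fewer reads per CpG, and no value has a spread between replicates.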
